A study of Mus musculus with 24 samples.

Results

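T11 cells that received only phosphate-buffered saline (PBS) made up 6 of the 24 samples, 3 harvested at 3 h and 3 at 6 h. These samples were taken by their label, and in the deposited table they are 2 of 8 columns, each the authors' mean of 3 biological replicates. The comparison asked how far the vehicle control itself moved between the harvests, with no peptide present. T11 comes from a mouse mammary tumour and is classed as claudin-low, a kind of breast tumour with mesenchymal features and little epithelial adhesion protein, and the samples here carried a luciferase gene. In each group 150000 cells were seeded in RPMI with 1% serum and grown for 3 days before treatment. The other groups received 5 µM of Omomyc, of the cell-penetrating peptide FPP-1746, or of FPP-1746-Omomyc, in which the peptides are joined, also for 3 h and 6 h with 3 replicates each. Omomyc is an altered dimerisation domain of the transcription factor MYC and occupies MAX, the partner MYC needs to bind DNA. FPP-1746 alone and Omomyc alone served as a check, because each has its own 3 h and 6 h columns and the 3 changes over time share no column.

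The values are FPKM, fragments scaled to transcript length and library size. With a single mean per group the replicate error is unknown, so no test was run, and no difference below has a replicate check. The labels do not say whether the 3 h and 6 h cultures were handled, harvested and sequenced together, so elapsed time and handling cannot be told apart. The same holds for fewer cells of a kind against less RNA per cell. The PBS columns summed to 486989 FPKM at 3 h and 468758 FPKM at 6 h, and 10089 and 10182 genes reached 1 FPKM. A rough reading of the step between low values put 1 FPKM of a 2000-base transcript at 84 fragments in the PBS column at 3 h and at 106 at 6 h. The epithelial list and the gene Vim followed the line's description, whereas other genes of the mesenchymal list ranged widely. The intermediate filament gene Vim, a mesenchymal marker, stood at 3693 FPKM and 3673 FPKM in PBS, and S100a4 at 3893 and 4483 FPKM. Pdgfrb stood at 2.22 and 2.95 FPKM in PBS, Pdgfra at 0.684 and 0.922 FPKM, and Thy1 at 0 at both times. Of the 15 genes on this list 14 were tested. No member of the epithelial list, which holds Epcam, Cdh1 and the keratins Krt8 and Krt14, was above 0.435 FPKM in any column. The endothelial list summed to between 0.09 and 0.18 FPKM over the 6 columns without the joined peptide and the lymphocyte list to at most 0.04 FPKM, whereas the macrophage list summed to between 11.2 and 25.9 FPKM, with Cd14 and Cd68 its tested members. Cd14 stood at 10.1 and 12.9 FPKM in PBS and at 11.3 and 24.5 FPKM in Omomyc, and its part in the results was not tested.

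Several of the genes that moved belong to circuits that adherent cells keep under constant adjustment. Serum response factor (SRF) binds a DNA element called the CArG box, and its cofactors of the MRTF family are held outside the nucleus by unpolymerised actin, so the genes it controls follow serum and the state of the cytoskeleton. YAP and TEAD proteins act on an overlapping group of genes, among them the matrix genes Ctgf and Cyr61, when cells are spread or under tension. The kinases of the CLK family phosphorylate SR proteins, which choose splice sites, and both families are known to control their own messages through retained introns and poison exons.

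Between 3 h and 6 h in PBS, the genes that fell included Srf, the matrix gene Ctgf, the zinc exporter gene Slc30a1, the heme oxygenase gene Hmox1 and the cysteine synthesis gene Cth. Those that rose included the CLK kinase genes Clk2, Clk3 and Clk4, the ephrin genes Efna1 and Efna4 and the formin gene Fhod1. Tested genes are those averaging at least 1 FPKM across the 8 columns. Of 10122 of them outside records of small RNAs, 35 differed at least 2-fold on the scale of FPKM + 1, or 0.346%. There were 24 lower and 11 higher, 0.237% and 0.109%. The peptide columns moved the same way: FPP-1746 had the sign of PBS for 34 of the 35 genes and Omomyc for 35. All 24 lower genes were also at least 1.5-fold lower in each of the peptide pairs, as against 7 of the 11 higher ones. Near the 2-fold limit Tnip1 stood inside at a log2 ratio of 1.02, and the predicted gene BC053749 outside at 0.99. On the lower side Errfi1 stood inside at -1.01, and Samd12 outside at -0.97.

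A wider set was read at 1.5-fold, where PBS alone had 344 genes, or 3.4%. Of the tested genes, 129 (1.27%) were at least 1.5-fold lower and 122 (1.21%) at least 1.5-fold higher in PBS, FPP-1746 and Omomyc alike, and these are the genes called falling or rising below. A stricter reading at 2-fold in each of the 3 pairs left 24 lower genes (0.237%) and 3 higher ones (0.0296%). Across the 10122 genes the time change of PBS and that of FPP-1746 had a Pearson correlation of 0.866 and a Spearman correlation of 0.832, and PBS and Omomyc gave 0.880 and 0.861. These describe genes, which are not independent replicates. Differences at a single time give a scale for this. FPP-1746 against PBS spread with a standard deviation of 0.12 log2 units over genes at 3 h and 0.13 at 6 h, and Omomyc against PBS with 0.12 at each time. The time change in PBS spread with 0.25, that in FPP-1746 with 0.29 and that in Omomyc with 0.31. At 1.5-fold, between 22 and 24 genes (0.217% to 0.237%) separated either peptide from PBS at the same time, against the 344 that separated the PBS columns.

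**Figure D1:**
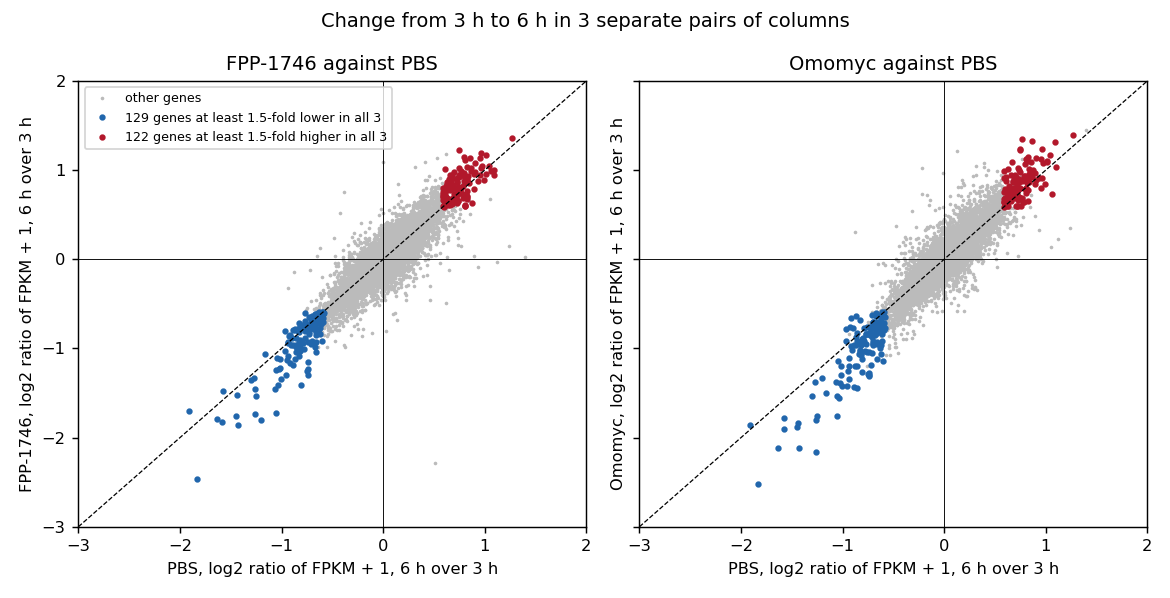
Log2 ratio of FPKM + 1 at 6 h over 3 h in PBS (horizontal axis) against FPP-1746 (left) and Omomyc (right), 1 point per tested gene outside records of small RNAs. Blue points are the 129 genes at least 1.5-fold lower and red points the 122 at least 1.5-fold higher in the 3 pairs, and the dashed line marks equal change; most blue points lie below it.

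The drift also reached genes that moved little. The 3 columns at 6 h lay all below the 3 at 3 h for 3355 genes (33.1%) and all above for 2913 (28.8%). One sign in the 3 pairs was found for 7578 genes (74.9%). The median change in PBS was -0.01, and 48% of genes were higher and 52% lower at 6 h. Counts of list members below are read against these shares. The falling genes were strongly expressed, with a median over the 8 columns of 26.3 FPKM against 14.8 FPKM for tested genes, and the rising genes were weaker, at 6.05 FPKM. Among genes with a locus of their own, rising genes spanned a median of 15520 bases of genome (106 genes), falling genes 21520 bases (112 genes) and tested genes 22020 bases (8395 genes).

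The genes that fell were led by Ctgf, which encodes a secreted matricellular protein and is a standard readout of YAP. It went from 58.5 to 15.7 FPKM in PBS, from 109 to 19.0 FPKM in FPP-1746 and from 81.6 to 13.4 FPKM in Omomyc, a log2 ratio of -1.83, -2.47 and -2.52. The lowest of the 3 h values was thus well above the highest at 6 h, and PBS had the lowest start. Ctgf lies on chromosome 10 from 24315248 to 24318488 in the mm9 build. Its relative Cyr61 fell from 404 to 229 FPKM in PBS (log2 ratio -0.81), with -0.91 in FPP-1746 and -1.07 in Omomyc. Tead1, whose product carries YAP to DNA, also fell, with a PBS log2 ratio of -0.67. In the YAP list 12 of 13 tested genes were lower at 6 h in PBS, 9 lay below and 1 above without overlap, and 3 were 1.5-fold lower in the 3 pairs. Among tested genes 52% were lower, 33.1% lay below, 28.8% lay above and 1.27% were 1.5-fold lower in the 3 pairs. The list's median log2 ratio was -0.31 in PBS, -0.44 in FPP-1746 and -0.49 in Omomyc, beside -0.01, -0.02 and -0.02 for tested genes. Ankrd1, a YAP target that encodes an ankyrin-repeat protein, had log2 ratios of -0.48, -0.91 and -0.99 and missed the limit only in PBS.

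Srf itself fell from 155 to 56.5 FPKM in PBS. In FPP-1746 it went from 193 to 66.7 FPKM and in Omomyc from 194 to 53.5 FPKM, so the log2 ratios were -1.44, -1.52 and -1.84. The gene lies on chromosome 17 from 46683788 to 46693111 in mm9. Proteins with LIM domains, zinc-binding modules of which many sit on actin filaments and focal adhesions, formed a further set, listed after the values were seen. Pdlim5 fell from 94.6 to 29.7 FPKM in PBS (log2 ratio -1.64), and the peptide columns began higher, at 133 and 129 FPKM, and ended at 37.5 and 28.9 FPKM. Fhl2, which encodes an SRF partner and target, fell from 33.4 to 11.8 FPKM (log2 ratio -1.43), from 46.9 to 12.2 FPKM in FPP-1746 and from 43.4 to 9.24 FPKM in Omomyc. Lima1, which bundles actin filaments, fell from 46.7 to 21.8 FPKM (log2 ratio -1.07). The focal adhesion gene Zyx fell from 318 to 164 FPKM (log2 ratio -0.95). Among these 4 LIM genes the 3 h and 6 h values did not overlap. Of 24 tested LIM genes, 18 were lower in PBS and 7 were 1.5-fold lower in the 3 pairs, beside 52% and 1.27% of tested genes, with a median of -0.18 in PBS. The list was made with these values seen.

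Other genes that SRF controls went both ways. Vcl, which links integrins to actin, fell from 223 to 131 FPKM (log2 ratio -0.76, with -0.73 and -0.75 in the peptides). Acta2, the smooth muscle actin gene, stood at 62.2 and 86.2 FPKM in PBS, at 101 and 143 FPKM in FPP-1746 and at 101 and 131 FPKM in Omomyc, log2 ratios of 0.47, 0.50 and 0.37, which are below the limit. Tagln, a calponin-related actin binder, had 0.42, 0.43 and 0.42. The 3 h and 6 h values of Acta2 overlapped across the groups, although each pair was higher at 6 h. Over the whole SRF cytoskeletal list 11 of 17 tested genes were lower in PBS, 4 were 1.5-fold lower in the 3 pairs and none higher, and the median was -0.11, beside 52% lower and 1.27% past the limit among tested genes.

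Since Srf and several of its described targets fell together, the promoters of the shared sets were read for the CArG box, by RefSeq's gene starts in GRCm38.p6, over 250 bases before to 50 bases after the start on both strands. A match was found in 11 of 95 falling genes with a promoter in the table (11.6%), in 2 of 99 rising genes (2.02%) and in 111 of 8136 tested genes (1.36%). The 11 were Srf, Asb5, Dusp5, Fermt2, Fhl2, Ldb3, Lima1, Lmcd1, Stbd1, Vcl and Prkab2, the last with its match after the start. The stretch before the start is shown for Srf because 2 boxes lie close together there (chr17:46556163-46556412, minus strand), and 50 bases around the match for the 9 others with a match before the start, 5′ to 3′ along the gene, with the CArG box in capitals. The matches begin 82 and 62 bases before the start in Srf and 82 and 72 before it in Dusp5, where the boxes abut. These letters describe the windows and do not show that SRF was bound.
Srf: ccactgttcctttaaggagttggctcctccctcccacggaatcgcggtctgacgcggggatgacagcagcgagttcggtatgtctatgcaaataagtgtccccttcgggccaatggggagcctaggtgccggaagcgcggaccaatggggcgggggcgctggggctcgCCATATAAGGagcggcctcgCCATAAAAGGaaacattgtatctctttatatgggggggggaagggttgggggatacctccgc
Asb5 (chr8:54550100-54550149, plus strand): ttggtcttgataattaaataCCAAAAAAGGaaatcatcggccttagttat
Dusp5 (chr19:53529043-53529092, plus strand): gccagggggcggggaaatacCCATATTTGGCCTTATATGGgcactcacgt
Fermt2 (chr14:45530240-45530289, minus strand): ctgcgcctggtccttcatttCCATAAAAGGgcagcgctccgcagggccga
Fhl2 (chr1:43196828-43196877, minus strand): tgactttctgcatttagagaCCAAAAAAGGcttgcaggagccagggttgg
Lima1 (chr15:99820167-99820216, minus strand): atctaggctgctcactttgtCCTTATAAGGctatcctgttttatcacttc
Vcl (chr14:20929151-20929200, plus strand): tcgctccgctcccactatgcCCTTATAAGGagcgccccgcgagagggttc
Ldb3 (chr14:34588687-34588736, minus strand): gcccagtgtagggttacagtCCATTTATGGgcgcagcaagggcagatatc
Lmcd1 (chr6:112273523-112273572, plus strand): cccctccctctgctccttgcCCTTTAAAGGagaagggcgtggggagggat
Stbd1 (chr5:92602995-92603044, plus strand): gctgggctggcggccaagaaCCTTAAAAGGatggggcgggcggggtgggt

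The carriers of these boxes included LIM and focal adhesion genes as well as genes of other functions. Asb5, which encodes a substrate adaptor of a ubiquitin ligase, fell from 232 to 84.4 FPKM in PBS (log2 ratio -1.45), with -1.76 and -1.88 in the peptides. Dusp5, a nuclear phosphatase of the kinase ERK, fell from 79.6 to 44.5 FPKM (log2 ratio -0.83). Fermt2, which encodes the integrin activator kindlin-2, fell from 54.5 to 30.6 FPKM. The LIM genes Lmcd1 and Ldb3 were weaker, falling from 12.8 to 6.82 FPKM and from 6.25 to 2.99 FPKM. Stbd1, a glycogen-binding protein gene, fell from 23.4 to 12.2 FPKM. The AP-1 element TGANTCA was matched in 12.6% of the falling promoters, 6.06% of the rising and 4.35% of tested ones. The E-box CACGTG, to which MYC and MAX bind, was matched in 15.8%, 7.07% and 11%, and the CCAAT box in 36.8%, 41.4% and 39.8%. The zinc-response motif TGCNCNC was matched in 64.2%, 58.6% and 60.2%, the heat-shock motif GAANNTTC in 5.26%, 3.03% and 5.48%, and the GC box GGGCGG in 68.4%, 77.8% and 68.6%. The cyclic AMP element TGACGTCA was matched in 2.11%, 6.06% and 3.60%, and the amino acid response motif TGATGNAA in 4.21%, 2.02% and 2.00%. The letters of these motifs can overlap one another in a promoter, and each promoter is counted once per motif.

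**Figure D2:**
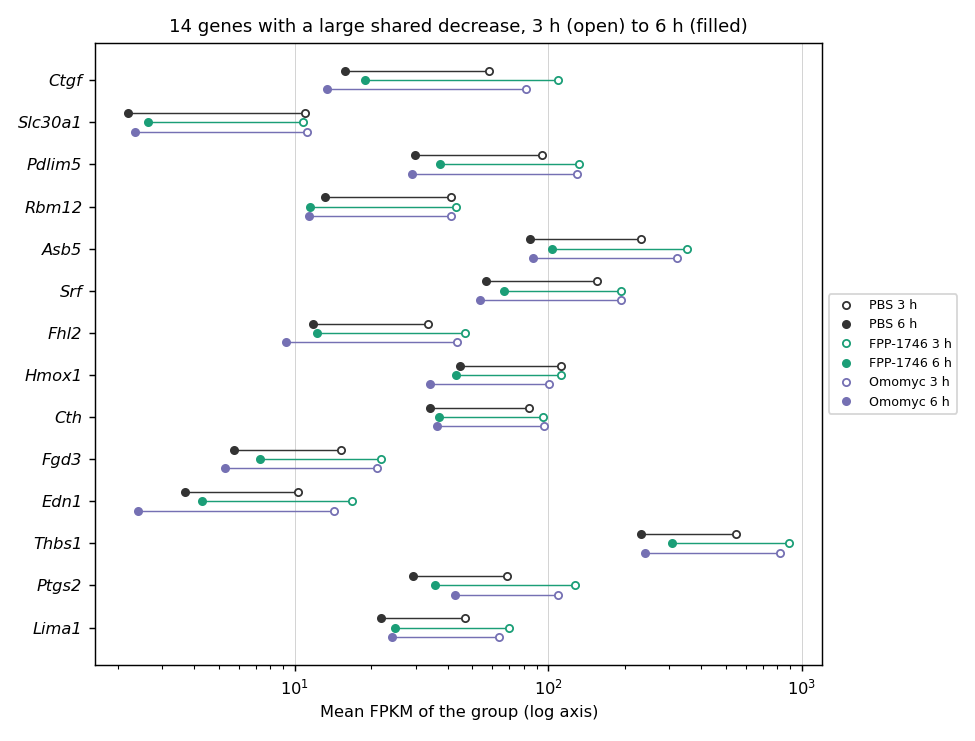
Mean FPKM (log axis) at 3 h (open circles) and 6 h (filled circles) in PBS, FPP-1746 and Omomyc for 14 of the 15 genes with the lowest ratios, ranked by the smallest of their 3 changes. In each of the 14 genes the filled circles lie left of the open ones, as for Srf, which went from 155 to 56.5 FPKM in PBS.

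Other genes that fell encode proteins of the matrix, the cell surface and prostaglandin synthesis. Thbs1, whose product thrombospondin-1 activates latent TGF-beta, fell from 551 to 231 FPKM (log2 ratio -1.25), with -1.53 and -1.76 in the peptides. Edn1, the gene of the vasoconstrictor endothelin-1, fell from 10.2 to 3.70 FPKM (log2 ratio -1.26). For both genes the PBS column at 3 h was the lowest of the 3 starts. Tissue factor, encoded by F3, fell from 100 to 47.8 FPKM in PBS (log2 ratio -1.05), and by more in FPP-1746 (-1.72) and Omomyc (-1.75), whose 3 h values were 195 and 169 FPKM. Ptgs2, which makes prostaglandins, fell from 68.9 to 29.4 FPKM (log2 ratio -1.20). Hbegf, an EGF receptor ligand, fell from 66.2 to 31.8 FPKM, and the ligand gene Tgfb2 from 6.44 to 2.65 FPKM. In the TGF-beta and matrix list 18 of 26 tested genes were lower in PBS, 11 lay below and 5 above without overlap, and 3 were 1.5-fold lower in the 3 pairs, at a median of -0.11. Tested genes gave 52% lower, 33.1% below, 28.8% above and 1.27% past the limit. In a list of EGF receptor ligands, receptors and inhibitors 6 of 7 tested genes were lower, and the ligand gene Hbegf and the inhibitor gene Errfi1 were 1.5-fold lower in the 3 pairs. The list median was -0.26 in PBS, -0.12 in FPP-1746 and -0.08 in Omomyc. In PBS it was the value of Areg, a weak ligand gene at 2.43 and 1.87 FPKM. Hbegf had log2 ratios of -1.03, -1.41 and -1.56 and Errfi1 of -1.01, -1.34 and -1.42, so they fell more in the peptides. The ligand gene Ereg had -0.71, -0.70 and -0.29.

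Among the 129 falling genes the median log2 ratio was -0.77 in PBS, -0.85 in FPP-1746 and -0.95 in Omomyc, and PBS had the smallest change in 85. The share with the smallest change in PBS was not counted over tested genes. Over these the time change also spread least in PBS, with 0.25 log2 units against 0.29 in FPP-1746 and 0.31 in Omomyc. At 3 h FPP-1746 stood above PBS in 111 of the falling genes and Omomyc in 116, with median log2 ratios of 0.19 and 0.20. At 6 h the counts were 101 and 65 and the medians 0.09 and 0.00. Over all tested genes the medians were 0.006 and 0.011 at 3 h and 0.005 and 0.002 at 6 h. The share of tested genes above PBS was not counted. Among the 122 rising genes the medians over time were 0.73, 0.80 and 0.85. Of these genes 19 and 30 were above PBS at 3 h, and 46 and 64 at 6 h. The falling and rising genes were picked on these same columns, the peptide differences use the PBS columns that the time change uses, and no test of the difference between the pairs is possible with 1 averaged column each.

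Some falling genes deal with zinc export, heme and sulfur amino acids. Slc30a1, which encodes the zinc exporter of the plasma membrane and is a classical target of the zinc sensor MTF1, had the lowest PBS log2 ratio of tested genes outside small RNAs, at -1.91. It went from 11 to 2.2 FPKM in PBS, from 10.8 to 2.64 FPKM in FPP-1746 and from 11.1 to 2.33 FPKM in Omomyc. Unlike Ctgf it began at nearly the same level in the 3 groups. The table gives Slc30a1 a locus shared with 1700034H15Rik (chromosome 1 from 193717951 to 193737126, mm9), so reads of the neighbour may be mixed in. The metallothionein genes, which MTF1 also controls, were not past the lower limit. Mt1 stood at 216 and 246 FPKM in PBS, a log2 ratio of 0.19, with -0.10 and 0.12 in the peptides. Mt2 went from 20.2 to 34.5 FPKM in PBS (log2 ratio 0.74), with 0.16 in FPP-1746 and 0.64 in Omomyc. Of 19 tested genes of metallothioneins and zinc transporters 11 were lower and 8 higher in PBS, and 6 lay below and 5 above without overlap. Slc30a1 was the 1 member 1.5-fold lower in the 3 pairs, and the list median was -0.02. This was near the background, where 52% were lower, 33.1% lay below, 28.8% above and 1.27% passed the limit, at a median of -0.01.

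Hmox1, the heme oxygenase gene, fell from 112 to 44.9 FPKM in PBS, from 112 to 43.2 FPKM in FPP-1746 and from 101 to 34.2 FPKM in Omomyc, with log2 ratios of -1.30, -1.36 and -1.53. Cth, which makes cysteine from cystathionine, fell from 83.9 to 34.1 FPKM (log2 ratio -1.27), and to 37.2 and 36.2 FPKM in the peptides. The cystine carrier gene Slc7a11 fell from 3.92 to 1.77 FPKM in PBS, a log2 ratio of -0.83, with -1.09 and -0.95 in the peptides. In these 3 genes the peptide columns began within 0.22 log2 units of PBS. They ended close to PBS in Cth and Slc7a11, but Hmox1 in Omomyc ended at a log2 ratio of -0.38 to PBS. Gclc, for the enzyme that starts glutathione synthesis, had a PBS log2 ratio of -0.62. In the NRF2 and redox list 16 of 21 tested genes were lower, 11 lay below and 2 above without overlap, and 2 were 1.5-fold lower in the 3 pairs, with a median of -0.09. The shares among tested genes were 52%, 33.1%, 28.8% and 1.27%.

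Several amino acid supply genes fell. Slc7a1, a carrier of cationic amino acids, fell from 37.0 to 21.1 FPKM in PBS (log2 ratio -0.78), with -1.0 and -1.03 in the peptides. Slc6a9, the glycine carrier gene, fell from 23.8 to 11.3 FPKM in PBS, with a locus shared with another gene in the table. Cars, the cysteinyl-tRNA synthetase gene, fell from 44.6 to 27.0 FPKM (log2 ratio -0.70). Of 13 amino acid transporters 10 lay below without overlap and 3 above, and 3 were 1.5-fold lower in the 3 pairs. Their median was -0.28 in PBS, -0.29 in FPP-1746 and -0.36 in Omomyc. Of 20 aminoacyl-tRNA synthetase genes 15 were lower and 14 lay below without overlap, at medians of -0.27, -0.29 and -0.34. In the list of the integrated stress response, the ATF4 programme that raises such genes when amino acids run short, 19 of 25 were lower and 17 lay below, at -0.26, -0.24 and -0.31. For comparison, 52% of tested genes were lower, 33.1% lay below and 28.8% above without overlap, and 1.27% were 1.5-fold lower in the 3 pairs. Asns, for asparagine synthetase, had a PBS log2 ratio of -0.43. The unfolded protein response list had 5 of 21 genes below and a median of -0.07, and heat-shock chaperones 4 of 18 below and -0.02.

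The immediate-early genes, which answer growth factors and stress within minutes, were mostly lower as well. Of 38 tested, 34 were lower in PBS at 6 h, 23 lay below without overlap and 5 were 1.5-fold lower in the 3 pairs, with medians of -0.27, -0.42 and -0.28. Among tested genes 52% were lower, 33.1% lay below and 1.27% passed the limit. Among the genes best known for fast induction, Fos and Egr1 were low at both times and Jun was not. Fos stood at 0.432 and 0.370 FPKM and Egr1 at 2.24 and 1.97 FPKM in PBS. Jun stood at 56.2 and 45.7 FPKM, a log2 ratio of -0.29. Other members and neighbours of this programme fell. Phlda1 went from 147 to 72.4 FPKM and Klf4, a zinc-finger factor, from 13.1 to 6.58 FPKM. Errfi1, an inhibitor of the EGF receptor, fell from 179 to 88.6 FPKM. Gadd45g, a growth arrest and stress gene, fell from 129 to 56.9 FPKM, and the kinase gene Plk2 from 179 to 93.6 FPKM. Zfp36l2, which speeds the decay of messages with AU-rich elements, fell from 207 to 108 FPKM (log2 ratio -0.93).

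Myc, the factor that Omomyc is built to oppose, fell in the control too. It went from 161 to 106 FPKM in PBS, from 170 to 109 FPKM in FPP-1746 and from 166 to 98.7 FPKM in Omomyc, log2 ratios of -0.60, -0.64 and -0.74. The gene lies on chromosome 15 from 61816896 to 61821916 in mm9. Max stood at 57.6 and 44.4 FPKM in PBS, a log2 ratio of -0.37, under the limit. Mxd3, a MAX partner that opposes MYC, rose from 11.2 to 18.4 FPKM in PBS (log2 ratio 0.67), with 0.85 and 1.10 in the peptides and a locus shared with another gene. The MYC, MAX and MXD list had 7 of 11 members lower and medians of -0.12, -0.23 and -0.33. Ribosome biogenesis genes, many of them MYC targets, were lower in 26 of 36, with 19 below without overlap and a median of -0.09, and none was 1.5-fold lower in the 3 pairs. In the circadian clock list 11 of 13 genes were lower and 8 lay below without overlap, at a median of -0.17. These counts stand beside 52% lower and 33.1% below without overlap among tested genes.

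The genes that rose were less strongly expressed, and on the scale of FPKM + 1 they were fewer at 2-fold. That scale understates the change of weak genes, so this count depends on it. Fhod1, a formin that assembles and bundles actin filaments, rose from 3.34 to 9.45 FPKM in PBS, from 2.95 to 9.13 FPKM in FPP-1746 and from 3.16 to 9.97 FPKM in Omomyc, log2 ratios of 1.27, 1.36 and 1.40. Its 6 h values lay close together and far above those at 3 h. Fhod1 is on chromosome 8 from 107853060 to 107871870 in mm9. Tcirg1, a subunit of the proton pump of lysosomes, rose from 11.3 to 24.4 FPKM (log2 ratio 1.05). Trerf1, a zinc-finger regulator of steroid enzyme genes, rose from 1.01 to 3.07 FPKM (log2 ratio 1.02). On the scale of FPKM + 1 these were the 3 genes at least 2-fold higher in each of the 3 pairs. In plain FPKM other genes were as well, such as Tnip1, Clk2 and Clk3. The NF-kB inhibitor gene Tnip1 rose from 12.2 to 25.7 FPKM in PBS (log2 ratio 1.02), with 0.95 and 1.09 in the peptides. Tnfaip8l1 rose from 2.02 to 5.45 FPKM, with log2 ratios of 1.09, 1.0 and 1.32, and Ccng2, a cyclin gene linked to cell cycle exit, from 4.0 to 9.47 FPKM with 1.06, 0.99 and 0.73. Pml, which organises nuclear bodies, rose from 5.55 to 10.9 FPKM.

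Of 4 tested A-type ephrins, membrane-anchored ligands by which touching cells signal to each other, Efna1 and Efna4 rose. Among tested genes 1.21% rose in the 3 pairs. Efna1 went from 7.98 to 16.4 FPKM in PBS, from 7.73 to 18.2 FPKM in FPP-1746 and from 7.39 to 17.3 FPKM in Omomyc, log2 ratios of 0.96, 1.13 and 1.12. Efna4 went from 2.88 to 6.58 FPKM in PBS (log2 ratio 0.97). Efna3 had log2 ratios of 0.26, 0.21 and -0.14, and Efna5 -0.08, 0.14 and 0.03. Sh3bp1, a regulator of the small GTPase Rac, rose from 12.1 to 24.6 FPKM (log2 ratio 0.97). The NF-kB inhibitor gene Nfkbie rose from 3.47 to 6.61 FPKM, with log2 ratios of 0.77, 0.99 and 1.35. The ephrins and the CLK kinases described next were singled out after their values were seen.

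**Figure D3:**
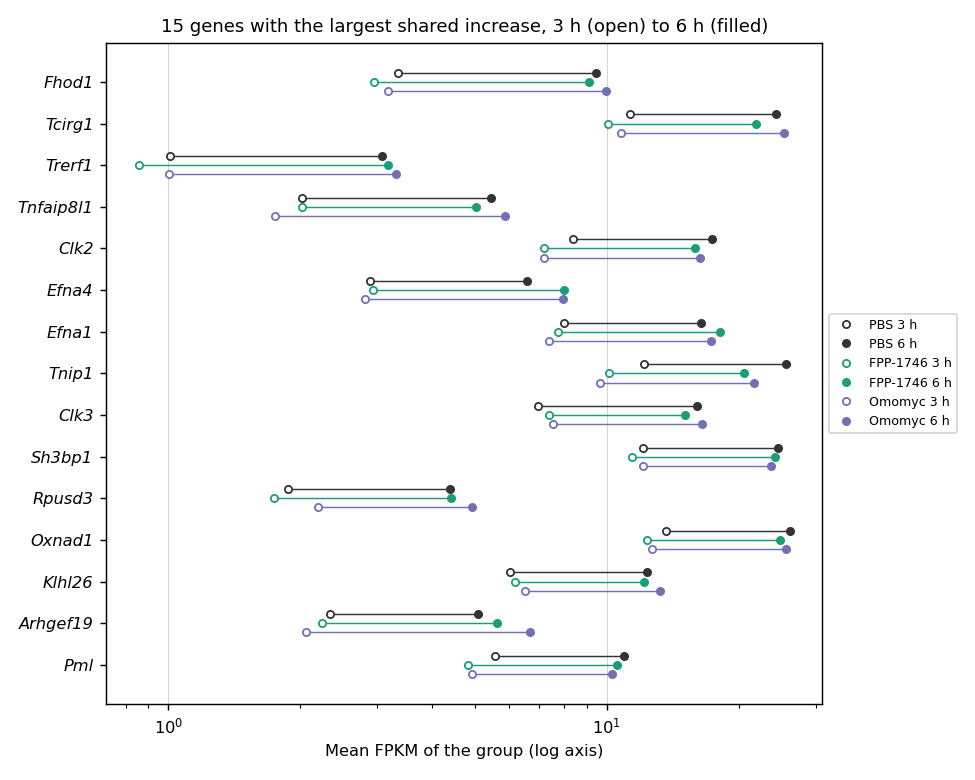
Mean FPKM (log axis) at 3 h (open circles) and 6 h (filled circles) in PBS, FPP-1746 and Omomyc for the 15 genes with the highest ratios, ranked by the smallest of their 3 changes. In each gene the filled circles lie right of the open ones, as for Fhod1, which went from 3.34 to 9.45 FPKM in PBS.

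Of the 4 CLK kinase genes 3 rose in the 3 pairs, against 1.21% of tested genes. Of 12 tested SR protein genes 1 fell, against 1.27% of tested genes. Clk3 rose from 6.99 to 16.1 FPKM in PBS, from 7.38 to 15.1 FPKM in FPP-1746 and from 7.54 to 16.5 FPKM in Omomyc, log2 ratios of 1.10, 0.94 and 1.04. Clk2 rose from 8.37 to 17.4 FPKM in PBS, with log2 ratios of 0.97, 1.05 and 1.08. Clk4 rose from 9.20 to 16.3 FPKM, with 0.76, 0.76 and 0.59. Clk1 went from 16.7 to 25.6 FPKM, with 0.59, 0.49 and 0.66, the middle value falling short of the limit. All 4 genes lay above without overlap, against 28.8% of tested genes. Clk2 is on chromosome 3 from 88968727 to 88981009 and Clk3 on chromosome 9 from 57598518 to 57613667 in mm9.

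Among the SR genes Srsf5 fell from 45.9 to 25.2 FPKM in PBS, from 45.0 to 25.4 FPKM in FPP-1746 and from 48.5 to 22.7 FPKM in Omomyc, log2 ratios of -0.84, -0.80 and -1.06. It was the member that passed the limit in the 3 pairs. Srsf7 went from 145 to 91.1 FPKM in PBS (log2 ratio -0.66, with -0.55 and -0.59), and Srsf6 from 123 to 84.5 FPKM (-0.53, with -0.50 and -0.74). Tra2a, an SR-like factor, stood at 138 and 109 FPKM, and Srsf3 at 83.2 and 66.4 FPKM. Srsf2, the most strongly expressed, stood at 363 and 362 FPKM. Of 12 tested SR genes 11 were lower in PBS and 9 lay below without overlap, against 52% and 33.1% of tested genes. The table gives 1 value per gene, so spliced and intron-retaining messages cannot be told apart.

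**Figure D4:**
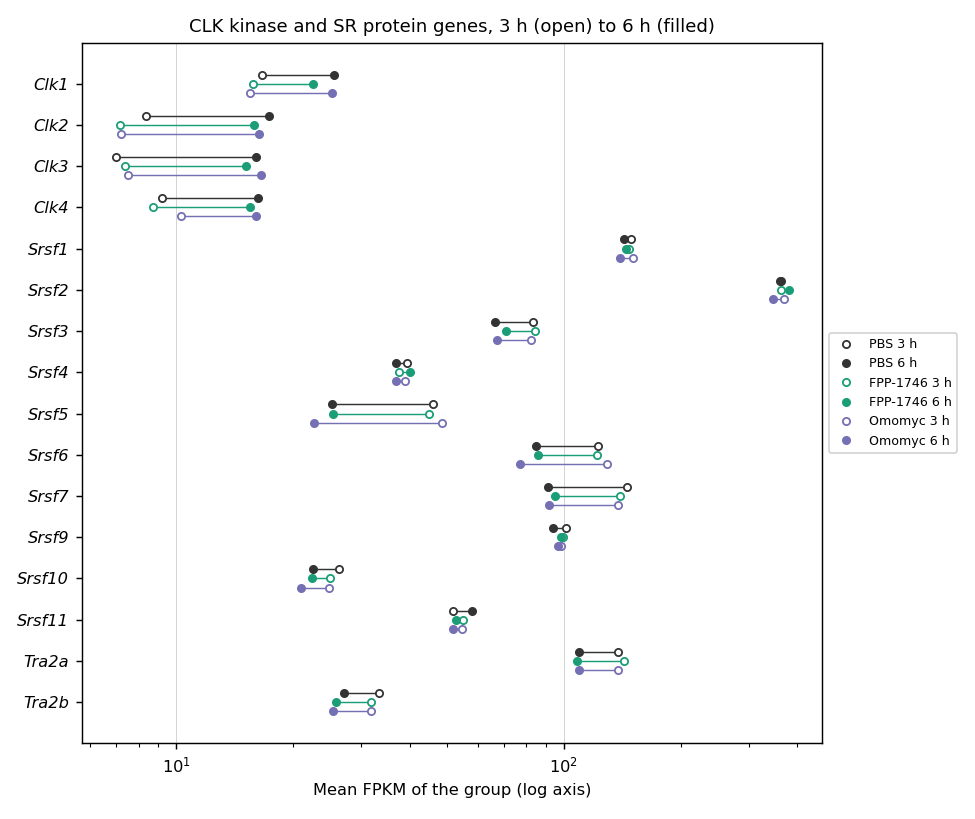
Mean FPKM (log axis) at 3 h (open circles) and 6 h (filled circles) in PBS, FPP-1746 and Omomyc for the 4 CLK kinase genes and 12 SR protein genes. The CLK genes lie further right at 6 h, most SR genes lie further left, and Srsf2 hardly moved, from 363 to 362 FPKM in PBS.

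Cell cycle genes showed a small shift that was wide rather than deep. Of 38 mitosis genes 33 were higher at 6 h in PBS, 24 lay above without overlap and 4 lay below. Of tested genes 48% were higher, 28.8% lay above and 33.1% below. The mitosis median was 0.16 in PBS, 0.09 in FPP-1746 and 0.13 in Omomyc. Kif2c, which frees wrongly attached microtubules, rose from 23.2 to 35.6 FPKM (log2 ratio 0.60, with 0.59 and 0.68). It was the 1 mitosis gene past the limit in the 3 pairs, against 1.21% of tested genes. Plk1, the main mitotic polo kinase, stood at 53.2 and 75.7 FPKM, a log2 ratio of 0.50. Of 41 DNA replication genes 31 were higher, 17 lay above and 6 below, at medians of 0.07, 0.05 and 0.01. The replication-dependent histone genes had no member without overlap among 9.

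Other lists stayed near the background. Oxidative phosphorylation had a median of -0.01 in PBS, cytosolic ribosomal proteins -0.04, glycolysis and hypoxia -0.03, lysosomal genes -0.02 and p53 targets -0.02. Lipid synthesis differed between the pairs. The cholesterol list had a median of -0.15 in PBS, 0.03 in FPP-1746 and 0.10 in Omomyc. In it 15 of 20 genes were lower in PBS but only 3 lay below without overlap, against 52% and 33.1% of tested genes. Insig1, which holds back the cholesterol programme, had log2 ratios of -0.52, -0.18 and -0.24. Fatty acid synthesis followed with medians of -0.07, 0.03 and 0.12. The NF-kB and chemokine list stood at -0.04, -0.06 and 0.20. No test of these differences between pairs was possible.

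**Figure D5:**
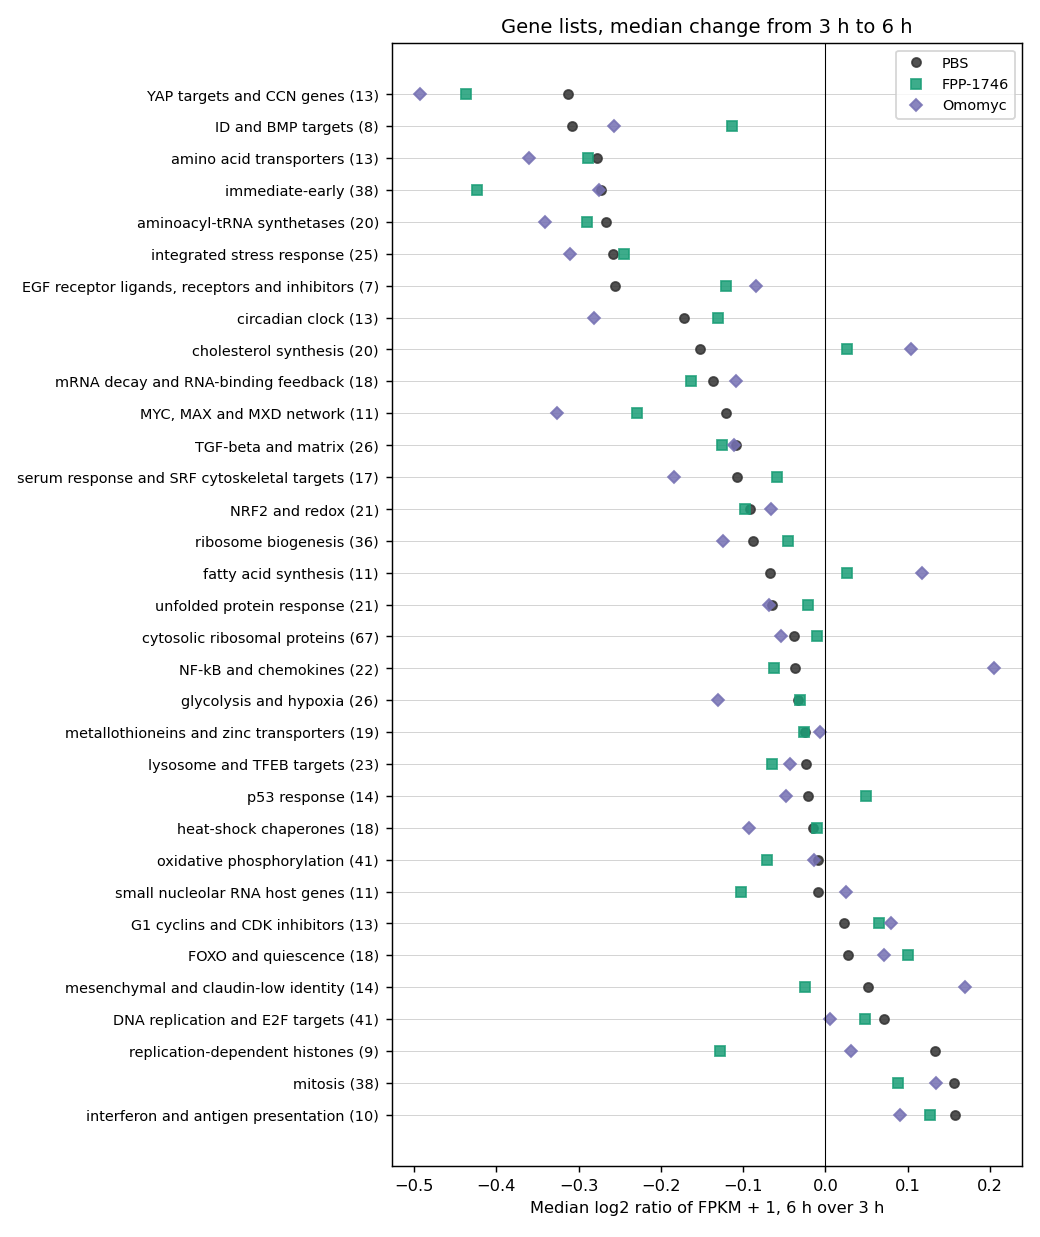
Median log2 ratio of FPKM + 1 at 6 h over 3 h for gene lists with at least 5 tested members (number in parentheses), in PBS (circles), FPP-1746 (squares) and Omomyc (diamonds). The YAP list has a median of -0.31 in PBS and the mitosis list 0.16, and the lipid lists have symbols on either side of 0.

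A few changes in PBS were not shared by the peptide pairs. Ccl5, a chemokine gene, went from 30.3 to 81.5 FPKM in PBS and from 27.7 to 77.5 FPKM in Omomyc, log2 ratios of 1.40 and 1.45, but stood at 35.6 and 36.3 FPKM in FPP-1746. It was the largest increase in PBS outside small RNAs. S100a7a, a small calcium-binding protein gene, went from 8.07 to 17.8 FPKM in PBS, a log2 ratio of 1.05, against 0.67 in FPP-1746 and 0.14 in Omomyc. Rps29, a ribosomal protein gene listed at 0.348 and 2.18 FPKM in PBS, had 0.15 and 0.35 in the peptides. Gm20571, a predicted gene named after its values were seen, had 1.13 in PBS, -0.03 in FPP-1746 and 0.23 in Omomyc. Together these were the 4 of the 35 genes not matched at 1.5-fold in both peptides. Records of small RNAs added 54 genes past 2-fold in PBS, which brought the count to 89 of 10262 (0.867%). Of these 54, 22 had the same sign in FPP-1746, 14 in Omomyc and 9 in both. Their FPKM per fragment is high because the RNAs are short.

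The 3 samples titled as the joined peptide at 6 h carry a treatment tag of 3 h, so the time behind that column is in doubt; the titles and the column name were followed. The columns of the joined peptide, in which 11.8% of genes passed 2-fold from 3 h to 6 h as named, gave the shared genes a mixed course. Of the 129 falling genes 49 were also at least 1.5-fold lower there and 14 were at least 1.5-fold higher, against 20.1% and 17.7% of tested genes, and the median was -0.34. Of the 122 rising genes 53 were at least 1.5-fold higher and 6 at least 1.5-fold lower, at a median of 0.48. Ctgf, Srf and Thbs1 had log2 ratios of -2.14, -1.11 and -1.78. Rbm12, an RNA-binding protein gene that shares a locus with Cpne1, fell from 41.3 to 13.1 FPKM in PBS (log2 ratio -1.58, with -1.83 and -1.77 in the separate peptides) and had 0.65 with the joined peptide. Slc7a11 stood at 5.23 and 13.9 FPKM there, a log2 ratio of 1.26. Srsf7, which is not among the 129 falling genes, stood there at 44.6 and 104 FPKM, or 1.21. Ccng2 stood at 29.4 and 10.0 FPKM, a log2 ratio of -1.46. Myc stood at 422 and 447 FPKM, or 0.08. Across genes the correlation of the joined peptide's time change with that of PBS was 0.219 by Pearson and 0.201 by Spearman.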

How the data were processed

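RNA-seq of 24 samples was deposited as 1 table of FPKM with 8 columns, which are the authors' means of 3 biological replicates per group. The tools were STAR 2.1.3, Cufflinks 2.2.1, Cuffnorm 2.2.1 and bcl2fastq 2.17.1.14 and the build was mm9, per the submitters' processing notes. How they were set, and whether strand was used, is not given in the sources used here, so genes that overlap cannot be told apart. FPKM does not give depth directly, and the fragments behind a value were estimated from the step between low values in 797 genes with a single transcript of at least 3000 bases, of which 34 and 36 could be used in the PBS columns. Coordinates of genes come from the table (mm9), its starts raised by 1 to be 1-based.

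Genes averaging 1 FPKM or more across the 8 columns were kept, 10262 in all, or 10122 without 140 records of small RNAs. Ratios were taken as log2 of FPKM + 1, which understates the change of low genes. A difference was counted at 2-fold in PBS, or at 1.5-fold with one sign in PBS, FPP-1746 and Omomyc, and "below" or "above without overlap" means that the 3 columns at 6 h lay all under or all over the 3 at 3 h. Genes were named by rule, leaving out small RNAs and predicted genes: the 10 highest and 10 lowest past 2-fold in PBS, the 15 highest and 15 lowest by the smallest of the 3 changes, the 4 members of each list that moved most, Myc and Max. Some genes that the rule names are not reported here. Genes outside the rule were named after their values were seen, among them the further CArG, LIM, SR and CLK genes. The comparison, the 40 gene lists and the settings were chosen with earlier results of these data known, and 4 more lists (CLK kinases, SR proteins, LIM proteins, A-type ephrins) after seeing these values. The 1.5-fold rule in the 3 pairs was run on simulated columns with changes well past it. That run checks the code and not the error of the rule in these data. The 2-fold rule in PBS was not run on simulated columns.

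Promoters of RefSeq (GRCm38.p6, 1 start per gene) were searched by exact letters on both strands. The SRF CArG box was searched by its usual form, a pair of C, then 6 letters of A or T, then a pair of G. Python 3.11.15, pandas 2.3.3, numpy 2.4.6 and matplotlib 3.10.9 were used. Alternatives were other pseudocounts, filters, scalings and limits.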

Additional observations from a re-analysis of the deposited data

How the results depend on the processing

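No replicate values were used here, so no replicate could be left out. No paired analysis was possible because each group is a single averaged column. None of the 30 named genes past the 2-fold limit in PBS changed direction under the alternatives run. Outside them, 1 of the 35 genes had the other sign in FPP-1746, as did many small RNA records. Between pairs of columns the medians of 7 lists with 5 or more tested genes changed sign: cholesterol and fatty acid synthesis, NF-kB, histones, p53 targets, mesenchymal genes and small nucleolar RNA hosts. Over all 10262 records PBS had 39 genes higher and 50 lower past 2-fold, and 126 were higher and 131 lower at 1.5-fold in the 3 pairs. With pseudocount 0.1 the counts were 83 higher in PBS and 242 higher in the 3 pairs, and the amino acid transporter median was -0.42. With pseudocount 5 they were 22 higher in PBS, and 19 higher and 69 lower in the 3 pairs, with list medians of -0.16 for immediate-early genes, -0.11 for the EGF receptor list, 0.66 for CLK kinases and 0.34 for ephrins. A minimum mean of 5 FPKM gave 25 higher in PBS and 76 in the 3 pairs, and -0.43 for ID and BMP targets. Leaving out small RNAs gave 11 higher and 24 lower, and genes with a locus of their own, a choice made after seeing the data, gave 14 and 24. The 1.5-fold limit gave 217 and 191, and 2-fold in the 3 pairs gave 5 and 25.

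Over all 10262 records the same contrast in FPP-1746 gave 79 lower, or 42 without small RNAs. The list medians in FPP-1746 were -0.42 for immediate-early genes, -0.44 for YAP targets, -0.11 for ID and BMP targets and -0.23 for the MYC network. They were 0.027 for cholesterol synthesis, -0.13 for histones and -0.12 for the EGF receptor list. In Omomyc the contrast gave 60 higher and 81 lower over all records, or 34 and 57 without small RNAs. The list medians in Omomyc were -0.49 for YAP targets, -0.33 for the MYC network, 0.20 for NF-kB, 0.10 for cholesterol and 0.12 for fatty acid synthesis. They were -0.28 for the clock, -0.084 for the EGF receptor list and 0.17 for mesenchymal genes. Of 172 named genes 30 were past the 2-fold limit in PBS. Of these 30, 17 dropped below it with pseudocount 5, 5 with quantile normalisation and 1 after centring the median. Among the other named genes 10 passed it with pseudocount 0.1. In the FPP-1746 columns 7 dropped below it and 11 more passed, and in the Omomyc columns 3 and 17.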
